A study of Mus musculus with 4 samples.

Results

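The type I and type II keratin gene clusters of the mouse held 45 Gata6 ChIP-seq peaks, or 0.371% of the list analysed, which has 12092 peaks elsewhere in the genome. A peak was taken as a member by position alone, where its midpoint lay in mm9 between 98.95 and 100.20 Mb of chromosome 11 (type I, 30 peaks) or between 101.10 and 101.95 Mb of chromosome 15 (type II, 15 peaks). Each region holds 4 of the 8 keratin genes followed by name: Krt10, Krt15, Krt14 and Krt17 in the first, and Krt5, Krt79, Krt8 and Krt18 in the second. The peaks come from cultured primary keratinocytes of dorsal mouse skin on a C57BL6/CBA background. All 4 libraries of the series were made from cells that carried the K14deltaNLef1 transgene, labelled K14deltaNLef1N for the first Gata6 library, and that overexpressed Gata6 from a lentivirus, so no group had Gata6 at its own level. Chromatin was precipitated with a Gata6 antibody from R&D Systems (1 library) or the Gata6 antibody D61E4 from Cell Signaling (1 library), beside a Flag antibody as negative control (1 library) and input DNA (1 library). A single overlap list stands for the Gata6 libraries. It carries positions and names but no values per library and no read depth, so the libraries could not be compared. The cells grew on irradiated mouse 3T3-J2 fibroblast feeders, whose share of the chromatin was not measured here.

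Keratins are the intermediate filament proteins of epithelia, built as pairs of an acidic type I and a basic type II protein, and the genes of each type lie side by side. Krt5 and Krt14 form the pair of the basal epidermal layer, Krt10 is a type I keratin of the differentiating layers above it, and Krt15 is a basal keratin also used as a marker of hair follicle stem cells. Krt17 is a keratin of hair follicles and of activated skin, Krt79 marks cells of the upper hair follicle and sebaceous duct, and Krt8 and Krt18 form the pair of simple epithelia. Krt18 encodes a type I protein although it lies beside Krt8 at the end of the type II genes. Gata6 is a zinc-finger transcription factor that binds GATA-containing motifs, and in skin it is known from the upper hair follicle and the sebaceous duct. The K14 promoter directs the truncated Lef1 of the transgene to basal keratinocytes.

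Promoter sequences are shown for Krt5, Krt8 and Krt18, the keratins with the lowest-numbered peaks of the type II region within 50 kb. RefSeq promoters of build GRCm38.p6 were at hand for 6 of the 8 genes and not for Krt15 and Krt17. The 250 bases before the start were searched on both strands for AGATAA or AGATAG or TGATAA or TGATAG, which are forms of the GATA motif. A match was found for 4 of these 6 genes, against 26.5% of the 32851 promoters in the same table. The promoters of Krt5, Krt8 and Krt18 are shown 5′ to 3′, with matches in capitals. They are chr15:101712906-101713155 and chr15:102004343-102004592 on the minus strand and chr15:102027966-102028215 on the plus strand of GRCm38.p6, a build whose coordinates cannot be set against the mm9 peaks.
Krt5: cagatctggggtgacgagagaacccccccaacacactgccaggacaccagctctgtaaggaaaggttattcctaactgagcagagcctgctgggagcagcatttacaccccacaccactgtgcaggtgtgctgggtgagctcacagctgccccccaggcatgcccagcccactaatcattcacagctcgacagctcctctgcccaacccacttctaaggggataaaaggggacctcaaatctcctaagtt
Krt8: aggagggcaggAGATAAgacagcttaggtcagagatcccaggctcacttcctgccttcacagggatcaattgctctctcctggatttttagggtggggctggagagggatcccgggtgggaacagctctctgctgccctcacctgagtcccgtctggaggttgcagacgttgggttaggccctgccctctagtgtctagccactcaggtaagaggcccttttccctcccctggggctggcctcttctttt
Krt18: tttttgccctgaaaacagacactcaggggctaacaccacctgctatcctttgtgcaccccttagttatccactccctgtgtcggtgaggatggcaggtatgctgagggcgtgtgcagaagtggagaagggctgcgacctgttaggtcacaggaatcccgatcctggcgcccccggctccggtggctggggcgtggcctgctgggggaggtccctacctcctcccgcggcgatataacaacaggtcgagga
The Krt8 promoter holds AGATAA starting 239 bases before the gene start, and the shown promoters of Krt5 and Krt18 hold no match. The Krt79 promoter, not shown, holds TGATAG on the opposite strand, starting 219 bases before the gene start. The other matches were AGATAA at 126 bases for Krt10 and TGATAA at 42 bases for Krt14. For both of these genes the start in the table lies inside the outermost bounds of the gene. A match describes these letters only, and no peak could be placed in a promoter because no gene starts of build mm9 were used.

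Gata6 peaks were dense in both keratin clusters. The type I cluster held 30 peaks in 1.25 Mb, or 24.0 per Mb (exact 95% Poisson interval 16.2 to 34.3), against 7.92 per Mb on the rest of chromosome 11. That is a 3.03-fold difference, with an interval of 2.04 to 4.33. The type II cluster held 15 peaks in 0.85 Mb, or 17.6 per Mb (9.88 to 29.1), against 5.15 per Mb on the rest of chromosome 15, a 3.43-fold difference (1.92 to 5.65). These intervals cover counting error only and take peaks as independent, although neighbouring peaks cluster.

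The cluster counts were set beside those of other windows. Chromosomes were cut into consecutive windows of the length of the cluster, and windows that overlap the cluster were left out. The 95 windows of 1.25 Mb on chromosome 11 had a median of 9 peaks and a highest count of 28, so none reached the 30 of the keratin cluster. Among 2087 such windows of all chromosomes, 3 did. On chromosome 15, 6 of 119 windows of 0.85 Mb (5.04%) reached the 15 peaks of the type II cluster, where the median window had 3 peaks and the fullest 23. Among 3079 windows of 0.85 Mb of all chromosomes, 129 (4.19%) reached 15 peaks. The window bounds were fixed by length and not by genes, whereas the cluster bounds were set around keratin genes. The cluster bounds were also chosen with earlier results of these data known, so these counts carry no test.

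The surroundings of both clusters also held more peaks than their chromosomes as a whole. The stretches of equal length on either side of the type I cluster had 17 and 16 peaks, together 13.2 per Mb, and those beside the type II cluster had 10 and 8, together 10.6 per Mb. Against its own flanks the type I cluster was 1.82-fold denser (exact 95% interval 1.07 to 3.08) and the type II cluster 1.67-fold (0.782 to 3.50). The flank comparison was chosen after the data were seen and has no test. The second interval includes equal density. Both intervals take peaks as independent, although neighbouring peaks cluster, so neither is read as a call.

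**Figure D1:**
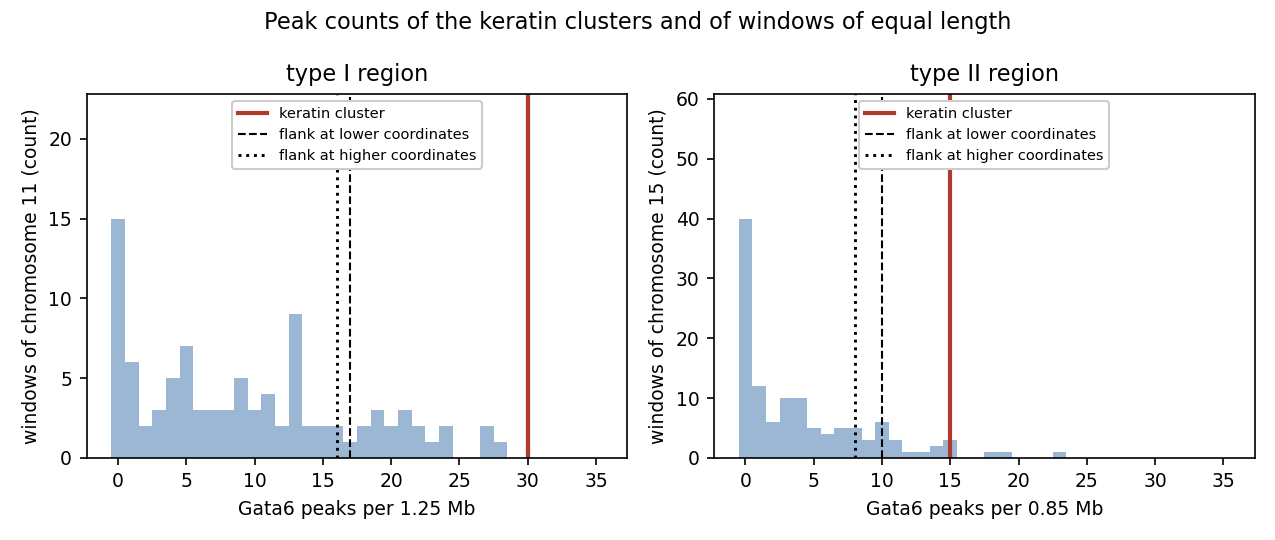
Histograms of Gata6 peaks per window for windows of 1.25 Mb along chromosome 11 (left) and of 0.85 Mb along chromosome 15 (right), without windows that overlap the cluster. The solid line marks the keratin cluster, with 30 and 15 peaks, and the broken lines its equal-length flanks, with 17 and 16 peaks on the left and 10 and 8 on the right.

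The clusters were compared with each other. Type I had 1.36 times the peak density of type II, with an exact 95% interval of 0.709 to 2.72, and the difference did not pass (two-sided exact binomial test, p = 0.365, Benjamini-Hochberg adjusted p = 0.365 over 3 tests). The interval leaves room for a type I density anywhere from lower than that of type II to more than double it. The test takes peaks as independent.

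Inside each region the peaks fell into groups separated by long empty stretches. In type I, 10 of 25 bins of 50 kb had no peak, and the fullest had 4. Its widest empty stretch, 276 kb, ran from the peak at chr11:99437133-99437291 to the one at chr11:99713050-99713208, between the stated positions of Krt10 and Krt15. In the order of a GRCm38 gene table, 13 other keratin genes lie between Krt10 and Krt15, and so do 23 protein-coding genes with a Krtap symbol, which encode keratin-associated proteins, the matrix proteins of the hair shaft. Which of them lie in the empty stretch was not determined, because that table was used for gene order only.

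The type II region had 8 empty bins of 17. Its widest empty stretch was 334 kb, from chr15:101210432-101210538 to the first peak at Krt5, chr15:101544266-101544411. This stretch separated 7 peaks at the lower end of the region from 8 that ran from Krt5 past Krt18. The gene table places 13 other type II keratins, from Krt80 to Krt6a, before Krt5, and 9 between Krt5 and Krt79, including Krt1, the partner of Krt10, and the pseudogene Krt74.

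Peaks were more frequent at the edges than inside in both regions, but neither difference passed. Edges were the outer 20% of the length at each end, 250 kb in type I and 170 kb in type II. In type I the edges held 17 of 30 peaks, or 56.7% (exact 95% interval 37.4 to 74.5) on 40% of the length, with 5 at the lower end and 12 at the upper end, where Krt15, Krt14 and Krt17 lie. That is 34.0 peaks per Mb at the edges and 17.3 inside (two-sided exact binomial test, p = 0.0916, adjusted p = 0.137). In type II the edges held 10 of 15 peaks, or 66.7% (38.4 to 88.2), with 7 at the lower end and 3 at the upper end, where Krt8 and Krt18 lie. Density there was 29.4 per Mb at the edges and 9.80 inside (two-sided exact binomial test, p = 0.0609, adjusted p = 0.137). When peaks within 20 kb of the next were counted as 1 group, the direction turned in type I, with 35.7% of groups at the edges. With edges set outside the outermost stated gene positions it turned in type II, where 53.3% of peaks lay on 62.4% of the length.

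**Figure D2:**
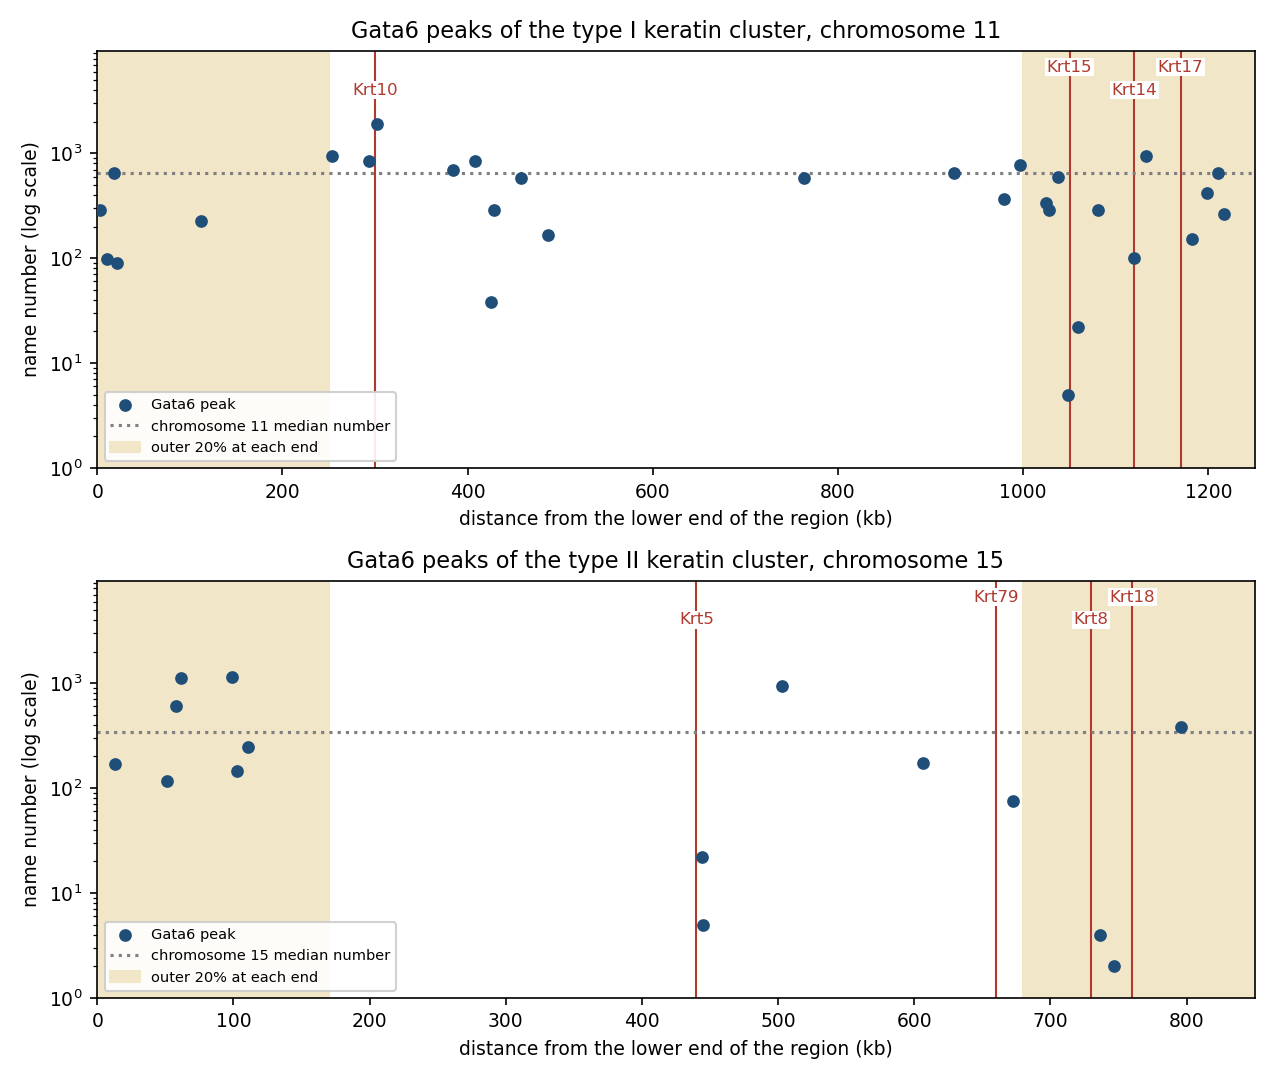
Peaks of the type I (top) and type II (bottom) cluster by distance from the lower end of the region in kb and by name number on a log axis, with stated gene positions as vertical lines, the outer 20% at each end shaded and the median number of the chromosome dotted. The lowest numbers, 5 and 22 in type I and 2, 4, 5 and 22 in type II, lie beside Krt15, Krt8 and Krt5, while the 3 peaks around Krt10 lie above the dotted line.

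All 8 named genes had a Gata6 peak within 25 kb of their stated position. Positions taken every 10 kb had a peak that close in 25.8% of cases on chromosome 11 and 17.7% on chromosome 15, and in 59.2% and 51.8% inside the type I and type II regions themselves. At 50 kb, all 8 genes again had a peak, and the shares of positions were 39.7% and 27.4% on the chromosomes. The gene positions were read to the nearest 10 kb, so smaller distances cannot be told apart, and no distance says on which side of a gene start a peak lies. Neighbouring genes share peaks, and the genes were proposed with these peaks known, so the counts carry no test.

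**Figure D3:**
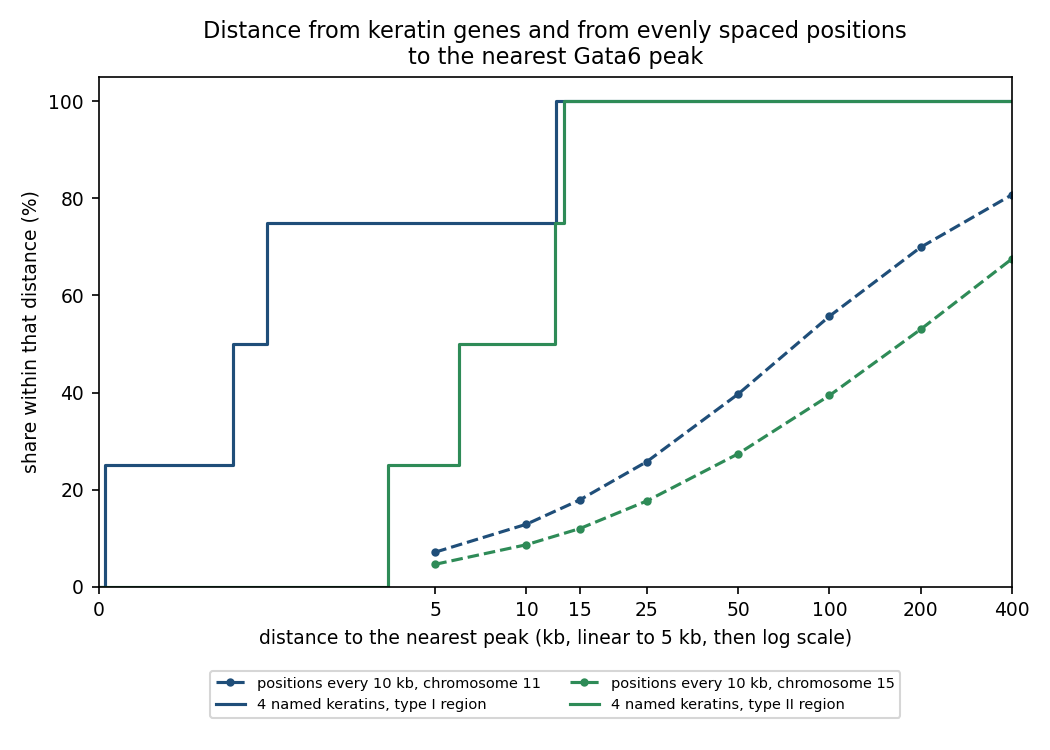
Share of the named keratins (solid steps, 4 genes a region) and of positions every 10 kb on the same chromosome (dashed) by distance to the nearest peak in kb, on an axis that is linear to 5 kb and logarithmic beyond. All 8 genes reach a peak within 13.3 kb, against 25.8% of positions on chromosome 11 and 17.7% on chromosome 15 within 25 kb, and gene positions are known only to the nearest 10 kb.

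The number in a peak's deposited name, called the name number here, is the only other value a peak carries besides its width. The sources used here do not say what it counts. Each peak was therefore placed by percentile among the listed numbers of its chromosome, from the lowest up. It was not taken as a measure of binding.

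In the type II region the lowest numbers lay at Krt5 and at the Krt8 and Krt18 pair. Beside Krt5, stated at 101.54 Mb, lay the closest pair of either cluster, chr15:101544266-101544411 with number 22 and chr15:101544890-101545055 with number 5, 0.634 kb apart. No other peak was within 50 kb of Krt5. The second of the pair had the largest width in the list, 166 bp.

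Krt8, stated at 101.83 Mb, had 2 peaks within 50 kb, chr15:101835952-101836113 with number 4 and chr15:101846643-101846797 with number 2. Krt18, stated at 101.86 Mb, shared both and had a further one at chr15:101896159-101896320 with number 382, at the 53.6 percentile. The peak with number 2 lay between the stated positions of Krt8 and Krt18, 16.7 kb from the first and 13.3 kb from the second. Numbers 2, 4 and 5 were therefore all inside the type II region, which held 3 of the 5 lowest listed numbers of chromosome 15. Those 5 make up 0.954% of the listed peaks of the chromosome.

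Krt79, stated at 101.76 Mb, had a single peak within 50 kb, chr15:101772352-101772516, with number 76 (percentile 13.4) and a width of 165 bp. It was the peak nearest to this keratin of the upper follicle, 12.4 kb from the stated position.

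In the type I region the 2 lowest numbers were nearest, among the named genes, to the position taken for Krt15. This position, the start of the range stated for Krt15 and Krt14 together, had 6 peaks within 50 kb. The nearest, chr11:99997958-99998123, had number 5, the fifth lowest of the 959 listed on chromosome 11, and the largest width, 166 bp. The next one, chr11:100008995-100009158, had number 22 and was 164 bp wide. The other 4 were chr11:99974944-99975080 (number 336), chr11:99978101-99978248 (number 288), chr11:99987257-99987360 (number 589) and chr11:100030378-100030516 (number 289). With percentiles of 26.1 to 46.6 these 4 were not among the lowest 25%. In GRCm38 gene order, Krt19 and Krt9 lie between Krt15 and Krt14, Krt16 between Krt14 and Krt17, and Krt42 after Krt17. Whether any of these lies nearer to a peak than the named genes was not determined.

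Krt14, placed at 100.07 Mb, the end of that joint range, had 3 peaks within 50 kb. The peak at chr11:100070022-100070165, at the position taken within its rounding, had number 101 (percentile 9.70). The one at chr11:100082825-100082985 had number 939 (percentile 65.5). The third was shared with Krt15, the peak with number 289.

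Krt17, stated at 100.12 Mb, had 6 peaks within 50 kb, of which 2 were also within 50 kb of Krt14, those with numbers 101 and 939. The nearest was chr11:100132378-100132525, with number 151 (percentile 14.5). Beyond it followed chr11:100148482-100148637 (number 415), chr11:100160056-100160200 (number 645) and chr11:100166703-100166855 (number 265). No member lay beyond this last peak, at the upper end of the region.

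Krt10, the keratin of the differentiating layers, had no peak within 50 kb in the lowest 25% of numbers. The 3 peaks within 50 kb of 99.25 Mb were chr11:99203313-99203449 with number 938, chr11:99243386-99243507 with number 851 and chr11:99252400-99252531 with number 1899. Their percentiles were 65.4, 60.5 and 91.6, and the last is the highest number of the type I cluster. Each of the other 7 genes had at least 1 peak within 50 kb in the lowest 25% of the numbers of its chromosome, although Krt8 and Krt18 shared theirs, as Krt14 and Krt17 shared the peak numbered 101. Positions every 10 kb had such a peak within 50 kb in 15.2% of cases on chromosome 11 and 9.90% on chromosome 15, and in 46.4% and 49.4% inside the type I and type II regions. This is a description of single genes, with no test.

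Low numbers also lay away from the named genes: 5 of the 10 type I peaks in the lowest 25% of numbers, and 2 of the 7 type II peaks, were farther than 50 kb from any of them. Of all peaks, whatever their number, 15 of 30 in type I and 9 of 15 in type II lay that far. The third lowest number of the type I cluster, 38, belonged to chr11:99375539-99375694, 125.6 kb from Krt10, between Krt10 and Krt15. Its neighbour at chr11:99378478-99378598, with number 287, was 2.92 kb away, the closest pair of the type I cluster. The 4 peaks at the lower end of the region, within 21.6 kb of its bound, had numbers 286, 98, 643 and 90.

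Over whole clusters the shares of peaks in the lowest 25% of numbers were above those of the chromosomes, within counting error. In type I, 10 of 30 peaks (33.3%, 95% Wilson interval 19.2 to 51.2) were in the lowest 25% of chromosome 11, and in type II it was 7 of 15 of chromosome 15 (46.7%, 24.8 to 69.9), against 24.9% of all listed peaks of these chromosomes. The intervals cover counting error only, and both include that share. The lower 50% of numbers, which takes in about 50% of a chromosome's listed peaks, held 23 of 30 type I peaks (76.7%). In type II it held 10 of 15 (66.7%), and neither share was tested. The median percentile was 30.9 in type I and 28.1 in type II. At the other end, 1 type I and 3 type II peaks were in the highest 25%.

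The lowest 5% of numbers, a bound chosen after the values were seen, took in 4 of 15 type II peaks (26.7%, 95% Wilson interval 10.9 to 52.0), against 4.96% of listed peaks on chromosome 15, and 3 of 30 type I peaks (10.0%, 3.46 to 25.6), against 4.90% on chromosome 11. These intervals take peaks as independent and, with a bound chosen so, stand for no test. Of the 4 type II peaks, those numbered 22 and 5 lay 0.634 kb apart, and those numbered 4 and 2 lay 10.7 kb apart. All 4 type II peaks were among the 6 within 50 kb of Krt5, Krt79, Krt8 or Krt18, and none was among the 9 farther away. These 6 peaks had a median number of 13.5 and the 9 others one of 244. In type I the peaks within 50 kb of a named gene had a median number of 336 and those farther away 366, with 15 peaks in each set. Whether the 2 clusters differ in this was not tested, and the genes were proposed with these peaks known.

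The closeness of low numbers around Krt5, Krt8 and Krt18 could be set beside the other chromosomes. Among the 5 lowest listed numbers of chromosome 15, the tightest 3 peaks spanned 0.302 Mb, all inside the type II cluster. On the other chromosomes the tightest 3 of the 5 lowest spanned 0.336 Mb on chromosome 4 and up to 45.0 Mb elsewhere, with a median of 18.3 Mb. Chromosome 15 was thus first of 20, little ahead of chromosome 4. On chromosome 11 the keratin cluster held 1 of the 5 lowest numbers, which are 0.521% of its listed peaks. This measure was also chosen after the values were seen and has no test.

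Numbers that follow each other did not mark neighbours. In type I, the peaks numbered 286, 287, 288 and 289 were all in the region, in that order of position, but the first and the last were at opposite parts of the cluster. There were 8 such pairs of consecutive numbers in type I, all 8 rising in position, with distances of 52.3 to 907 kb. On chromosome 11 as a whole 518 of 557 pairs rose. Type II had 2 pairs, of which 1 rose, at 593 kb, while the pair of numbers 4 and 5 ran from Krt8 back to Krt5, over 291 kb.

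Peak widths and the gaps between neighbours were described beside those of the chromosomes. The median width was 143 bp in type I, as on chromosome 11, and 155 bp in type II, against 142 bp on chromosome 15. Peaks of 83 bp or less numbered 1 of 30 in type I (81 bp), against 9.80% on chromosome 11, and 2 of 15 in type II (15 and 74 bp), against 9.35% on chromosome 15. Both narrow type II peaks, with numbers 1132 and 1134, were at the lower end, far from the named genes. The largest width was shared by 1 type I peak, against 5.63%, and by 2 type II peaks, against 6.30%. Pairs within 5 kb made up 3 of 29 neighbouring pairs in type I, against 12.2%, and 3 of 14 in type II, against 11.1%. The median gap between neighbours was 17.8 kb in type I, against 38.2 kb on chromosome 11, and 37.8 kb in type II, against 44.5 kb on chromosome 15.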

How the data were processed

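Binding was measured by ChIP-seq in 4 libraries (2 Gata6, 1 Flag, 1 input), and the table used is the overlap list of Gata6 peaks deposited by the authors. BWA, HOMER and build mm9 are named per the submitters' processing notes, without roles or versions. For the intersected lists, the overlap, the threshold and the role of the controls, nothing is stated in the labels used here. The score deposited by the authors is 0 in every row. Starts were read as 0-based and are printed 1-based.

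Peaks were assigned by midpoint. Gene positions are the approximate mm9 ones that defined the regions. Krt15 and Krt14 share a stated range of 100.00 to 100.07 Mb, whose start was taken for Krt15 and whose end for Krt14. The regions, genes and lists were chosen with earlier results of these data known. Density and edges were tested by exact binomial tests, adjusted over 3 tests (threshold 0.05), after tests on simulated counts. Those counts were drawn as independent, so they do not show how the tests behave with clustered peaks. Peaks printed singly are those within 50 kb of a named gene, the 3 lowest numbers, the closest pair and the ends of the widest empty stretch of each cluster. Others printed were chosen after their values were seen. Python 3.11.15, NumPy 2.4.6, pandas 2.3.3, SciPy 1.17.1 and matplotlib 3.10.9 were used.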

Additional observations from a re-analysis of the deposited data

How the results depend on the processing

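Among 30 alternatives, 27 left the direction, call or size as reported. Not all of them could change a result. A gene with a peak within 50 kb also has one within 100 kb, and counting any overlap with a region gave the same 30 and 15 peaks. The density ratio of type I to type II ranged from 1.06 with groups within 20 kb to 1.56 with the lower 50% of name numbers and passed in none of 7 settings. The share of type I at the edges turned from above to below the share of length with groups within 20 kb (35.7%), as did that of type II outside the outermost stated gene positions (53.3%), and the cause was not tested. The excess of type I over its chromosome moved from 3.03-fold to 4.73-fold with the lower 50% of name numbers, which kept 23 of its 30 peaks. In the same setting the excess of type II went from 3.43-fold to 4.59-fold, with 10 of its 15 peaks kept. With groups within 20 kb the excess was lower, 2.10-fold in type I and 2.97-fold in type II. The 8 genes kept a peak within 25 kb, within 100 kb and within 50 kb among peaks wider than 83 bp. No paired analysis was possible because the list has no values per library, and for the same reason libraries were not left out in turn. Library depth limits which sites are listed, and its effect was not measured.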
